A study of Homo sapiens with 8 samples.

Results

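Small nucleolar RNA (snoRNA) genes and the related small Cajal body RNA genes were followed across 8 arrays of U-87MG cells, an established human glioblastoma line. A gene was taken as a member when a row of the deposited table carried exactly 1 gene symbol and that symbol began with SNORA, SNORD or SCARNA followed by a digit. This gave 40 genes out of 11822 with a symbol of their own, 25 SNORD, 11 SNORA and 4 SCARNA genes, each measured by 1 probe set. A further 54 rows paired a snoRNA symbol with other symbols and were kept apart. The 4 treated samples had received 50 µM I3CA (indole-3-carboxaldehyde), a product of tryptophan breakdown that the submitters treat as a ligand, known or supposed, of the aryl hydrocarbon receptor, for 24 h. The 4 control samples received the solvent DMSO. All 8 are labelled as U-87MG with no further modification named, and the arrays of a group carry the label of biological replicates. Separate cultures are not stated, and p-values then cover only the spread between these samples, which may be technical.

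snoRNAs are short noncoding RNAs that guide chemical changes on other RNAs in the nucleolus. Box C/D snoRNAs, named SNORD, pair with ribosomal RNA and direct fibrillarin to add methyl groups to ribose, while box H/ACA snoRNAs, named SNORA, direct dyskerin to turn uridine into pseudouridine. The SCARNA genes encode relatives that stay in Cajal bodies and act on the small nuclear RNAs of the spliceosome. Most human snoRNAs are cut out of introns of a host gene, which often encodes a ribosomal protein, a translation factor or a noncoding RNA whose spliced product is unstable, and they are protected from decay by the proteins of their particle. A few, among them those of the U3 family and SNORD13, are transcribed from genes of their own.

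According to RefSeq gene positions, 37 of the 40 members lay inside another gene and 3 did not (SNORD13, SNORD3C and SNORD32B). Strand was not compared. Host genes of this kind are known for start sites in a run of pyrimidines, so the transcription starts of the hosts are shown to place the members in their setting. The sequences are RefSeq (GRCh38.p14), written 5′ to 3′ on the strand of the host, with 20 bases before the annotated start and 15 from it on. Capitals mark the first CTTT found within 10 bases on either side of the start, searched on that strand only.
RPS3, which holds SNORD15B (chr11:75399498-75399532, plus strand): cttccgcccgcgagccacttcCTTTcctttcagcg
IPO7, which holds SNORA23 (chr11:9384632-9384666, plus strand): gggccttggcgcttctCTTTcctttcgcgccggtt
ZFAS1, which holds SNORD12 and SNORD12B (chr20:49278622-49278656, plus strand): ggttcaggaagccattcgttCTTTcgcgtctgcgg
NCL, which holds SNORD82 (chr2:231464470-231464504, minus strand): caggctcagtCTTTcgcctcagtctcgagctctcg
NOL11, which holds SNORA38B (chr17:67717916-67717950, plus strand): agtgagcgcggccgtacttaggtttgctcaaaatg
HSPA9, which holds SNORD63 (chr5:138575387-138575421, minus strand): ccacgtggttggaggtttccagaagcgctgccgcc
NOL11 and HSPA9 hold no such match in this window and are shown because their snoRNAs had the largest differences described below. Of 32 start windows available for 26 of the 35 hosts, 8 held the motif, or 25.0%, against 9.07% of all 35116 RefSeq start windows. A match is a description of the letters in the window and not a mapped site.

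The values are log2 expression values made by the authors with RMA, which corrects background and equalises the distribution of values between arrays. The median of an array lay between 8.80 and 8.83 over 13486 rows. Correlations between arrays, taken across genes, ran from 0.956 to 0.974. Signal over background is not given in the table, which leaves expression of a dim gene unproven, and the number of arrays limits the precision. Of 11 markers fixed for glioblastoma cells 8 were measured, with VIM at 13.09 and FN1 at 12.85 among the highest genes of the table and with GFAP at 8.31 and NES at 8.14 below the median of all genes. The 6 measured markers of other cell types lay between 7.70 and 9.13, a range that takes in GFAP and NES. Both arrays numbered 4 stood apart from the other 6 in the members, as described below, and I3CA replicate 1 was low in many of them. Over all genes the arrays numbered 4 also had the lowest array weights in limma. These were 0.729 for DMSO replicate 4 and 0.774 for I3CA replicate 4, against 0.909 or more for the others. The median difference, the counts of members, the median spread and the largest single differences are also given without the arrays numbered 4. In RNA from whole cultures, fewer cells of a kind and less RNA per cell cannot be told apart.

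No snoRNA gene passed the test between I3CA and DMSO. Of the 40 members, 0 passed in limma at a Benjamini-Hochberg adjusted p under 0.05 over all 11822 genes, where 1 gene, or 0.00846%, passed. At an unadjusted p under 0.05 there were also 0 members, against 3.16% of all genes in either direction and 1.42% lower with I3CA, and in 0 members did the groups not overlap, against 1.92% of all genes in either direction and 0.956% lower with I3CA. The smallest unadjusted p of a member was 0.054. Even so, most means lay on one side. In 33 of the 40 members the I3CA mean was below the DMSO mean, against 53.4% of all genes, and the median difference (I3CA minus DMSO) was -0.12 on the log2 scale, against -0.01 over all genes. Since the members varied together from array to array, these 33 are not independent observations. Single differences ran from -0.55 to 0.12. The 54 rows that pair a snoRNA symbol with other symbols had a median difference of -0.02, with 32 of the 54 below 0, and a median shift of -0.07 in the arrays numbered 4.

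The direction of the median held without any one array, and its size did not. Without I3CA replicate 4 it was -0.05, without DMSO replicate 2 -0.07, without I3CA replicate 1 -0.08 and without DMSO replicate 4 -0.19. Without both arrays numbered 4 it was -0.14, with 32 members below 0. Without DMSO replicate 4 alone, 9 members had an unadjusted p under 0.05 in limma. There were 3 without I3CA replicate 2, 3 without both arrays numbered 4 and 6 with replicate number as a block. Of all 11822 genes, 328 to 473 lay under that threshold when 1 array was left out. The counts of all genes without both arrays numbered 4 and with the block are not given here. Members passing the adjusted threshold stayed at 0 in all of these fits.

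**Figure D1:**
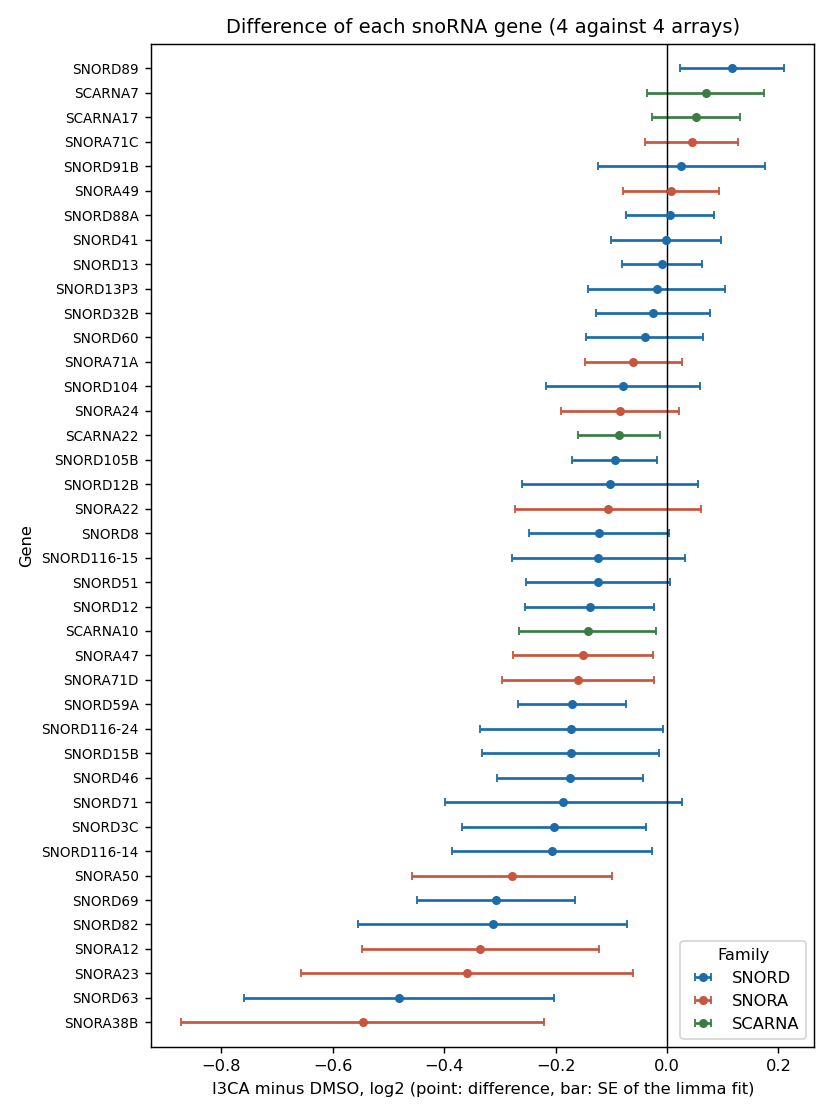
Difference between I3CA and DMSO for each of the 40 members on the log2 scale, with points for the limma estimate, bars for its standard error and colours for the 3 families. The points lie between -0.55 and 0.12, with 33 left of 0.

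Among the box C/D genes, SNORD63, which guides methylation of the large ribosomal subunit RNA, had the most negative difference. Its log2 values in replicates 1 to 4 were 8.43, 9.18, 8.75 and 8.18 with DMSO and 7.86, 8.82, 8.40 and 7.54 with I3CA. The groups overlapped, and each I3CA array lay below the DMSO array of its number. The difference was -0.48 ± 0.28 (SE; 95% interval -1.10 to 0.14, unadjusted p = 0.11 in limma). With replicate number as a block the difference was the same by construction and its adjusted p, 0.50, was the smallest of the named members under the alternatives tried. It was -0.30 without DMSO replicate 2, -0.28 without I3CA replicate 4 and -0.43 without both arrays numbered 4.

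SNORD69, another guide for the large subunit RNA, had the smallest unadjusted p of all members. It read 11.00, 10.93, 10.79 and 10.38 with DMSO and 10.25, 10.67, 10.49 and 10.46 with I3CA. DMSO replicate 4 lay among the I3CA arrays, and the other 3 DMSO arrays lay above all of them. The difference was -0.31 ± 0.14 (95% interval -0.62 to 0.01, unadjusted p = 0.054 in limma).

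SNORD82, encoded in the nucleolin gene NCL, read 10.40, 10.85, 10.54 and 9.70 with DMSO and 9.92, 10.61, 9.87 and 9.82 with I3CA. One array of each group crossed into the other group, DMSO replicate 4 at the low end and I3CA replicate 2 at the high end. The difference was -0.31 ± 0.24 (95% interval -0.85 to 0.22). It was -0.15 without DMSO replicate 2, -0.54 without DMSO replicate 4, -0.50 without I3CA replicate 2 and -0.46 without both arrays numbered 4.

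Other box C/D genes read nearly the same in both groups. SNORD13, which supports acetylation of the small ribosomal subunit RNA, had the highest signal of the members, 13.52 ± 0.04 (SD, n = 4) with DMSO and 13.52 ± 0.05 (SD, n = 4) with I3CA. Its 8 arrays spanned 0.125 on the log2 scale. The difference was -0.01 ± 0.07 with a 95% interval of -0.17 to 0.15. SNORD105B, a guide for the small subunit RNA encoded in PPAN, read 12.20, 12.18, 12.16 and 12.12 with DMSO and 12.10, 12.13, 12.12 and 11.94 with I3CA. Its difference was -0.09 ± 0.08, with each I3CA array below the DMSO array of its number. SNORD41, a large subunit guide encoded in TNPO2, had means of 11.23 in both groups and a difference of 0.00 ± 0.10.

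SNORD46 differed by -0.17 ± 0.13 and SNORD15B, encoded in RPS3, by -0.17 ± 0.16. SNORD3C belongs to the U3 family, which acts in the first cleavages of the ribosomal RNA precursor. It read 11.05, 11.26, 10.92 and 10.64 with DMSO and 10.51, 11.20, 10.73 and 10.63 with I3CA, a difference of -0.20 ± 0.17. The U3 copies are near-identical and another row carries several of them, so this value cannot be given to a single locus. SNORD71, which guides methylation of the short ribosomal RNA of the large subunit and is encoded in AP1G1, differed by -0.19 ± 0.21. Leaving out 1 array moved this difference to between -0.38, without DMSO replicate 4, and -0.02, without I3CA replicate 4. Only 3 of the 25 SNORD genes had a higher mean with I3CA, namely SNORD89 at 0.12 ± 0.09, SNORD91B at 0.03 ± 0.15 and SNORD88A at 0.01 ± 0.08. These 3 and SNORD51 (-0.12 ± 0.13) had the lowest mean signals of the 40 members, from 7.81 for SNORD89 upwards. Signals of different probe sets are not amounts of RNA and are not compared further.

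The SNORD116 genes are copies from the imprinted Prader-Willi region, processed from the long noncoding RNA SNHG14, and have no known ribosomal target. SNORD116-14 read 8.89, 9.11, 8.83 and 8.32 with DMSO and 8.65, 8.79, 8.72 and 8.16 with I3CA, a difference of -0.21 ± 0.18. SNORD116-24 differed by -0.17 ± 0.16 and SNORD116-15 by -0.12 ± 0.16. In all 3 the array numbered 4 was the lowest of its group, with DMSO and with I3CA. The copies resemble each other closely, so the signal of one locus cannot be kept apart from that of the others on such an array. The other 8 box C/D genes ran from -0.17 for SNORD59A, encoded in an ATP synthase subunit gene, to -0.02 for SNORD13P3, which RefSeq lists as a pseudogene. Among these 8 were SNORD12 at -0.14 and SNORD12B at -0.10, both in ZFAS1 and close copies.

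Among the box H/ACA genes, SNORA38B, encoded in NOL11, had the most negative difference of all 40 members. It read 9.76, 9.92, 9.08 and 8.36 with DMSO and 8.80, 8.89, 9.14 and 8.11 with I3CA. The DMSO arrays alone spanned more than the difference between the groups, which was -0.55 ± 0.33 (95% interval -1.27 to 0.17, unadjusted p = 0.12 in limma). DMSO replicates 1 and 2 lay above all I3CA arrays and DMSO replicate 4 below 3 of them. The difference was -0.33 without DMSO replicate 2, -0.34 without I3CA replicate 4, -0.85 without DMSO replicate 4 and -0.64 without both arrays numbered 4.

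SNORA23, encoded in the importin gene IPO7, read 9.19, 10.41, 9.62 and 8.99 with DMSO and 8.71, 9.64, 9.48 and 8.95 with I3CA. Replicate 2 was the highest in both groups. The difference was -0.36 ± 0.30, but -0.07 without DMSO replicate 2, -0.20 without I3CA replicate 1 and -0.55 without DMSO replicate 4. SNORA12, encoded in CWF19L1, read 8.74, 9.09, 8.88 and 8.20 with DMSO and 8.02, 8.77, 8.65 and 8.12 with I3CA, a difference of -0.34 ± 0.21 that ran from -0.51, without DMSO replicate 4, to -0.21, without I3CA replicate 1. SNORA50, encoded in CNOT1 and now named SNORA50A in RefSeq, differed by -0.28 ± 0.18.

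Other H/ACA genes differed little between the groups. SNORA24, a small subunit guide from the noncoding host SNHG8, differed by -0.08 ± 0.11, and SNORA49, encoded in EP400, by 0.01 ± 0.09. SNORA47, encoded in ZBED3, differed by -0.15 and SNORA22 by -0.11. The 3 SNORA71 genes of the noncoding host SNHG17 guide modification of the small subunit RNA and are close copies. SNORA71A differed by -0.06 ± 0.09, SNORA71C by 0.04 ± 0.08 and SNORA71D by -0.16 ± 0.14. Of the 11 SNORA genes 9 had lower means with I3CA, and their median difference was -0.15, beside -0.12 for the SNORD genes.

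The 4 Cajal body RNA genes split evenly by sign, and their median difference was -0.02. SCARNA7, which guides modification of a spliceosomal small nuclear RNA and is encoded in KPNA4, differed by 0.07 ± 0.10. SCARNA17 differed by 0.05 ± 0.08, SCARNA22, encoded in the histone methyltransferase gene NSD2, by -0.09 ± 0.07 and SCARNA10, encoded in the condensin gene NCAPD2, by -0.14 ± 0.12. Whether the families differ in their response was not tested.

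What stood out in these genes was a pattern of arrays that ran across both groups. Taking each member's deviation from its own mean over 8 arrays, the median over the 40 members was 0.08, 0.25, 0.06 and -0.17 in DMSO replicates 1 to 4 and -0.12, 0.08, 0.07 and -0.20 in I3CA replicates 1 to 4. DMSO replicate 2 was thus the highest array of the median and both arrays numbered 4 the lowest, followed by I3CA replicate 1. Over all genes the same medians lay between -0.01 and 0.02, as the normalization makes them.

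The members shared this pattern widely. DMSO replicate 4 was the lowest DMSO array in 32 of the 40 members (80%, against 29.4% of all genes), and I3CA replicate 4 the lowest I3CA array in 22 (55%, against 26.7%). In 18 members (45%) both were the lowest of their group, against 12.2% of all genes. DMSO replicate 2 was the highest of all 8 arrays in 21 members, and I3CA replicate 1 the lowest of all 8 in 15. The first principal component of the deviations from the group means held 72.7% of the variance of the members and 28.2% of that of all genes. The deviations were not scaled, so members with a wide spread weigh most. The sets also differ in size, so the shares are not strictly comparable. Of the low arrays 1 was DMSO and 2 were I3CA, and their part in the lower I3CA means was not tested beyond the fits without them.

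**Figure D2:**
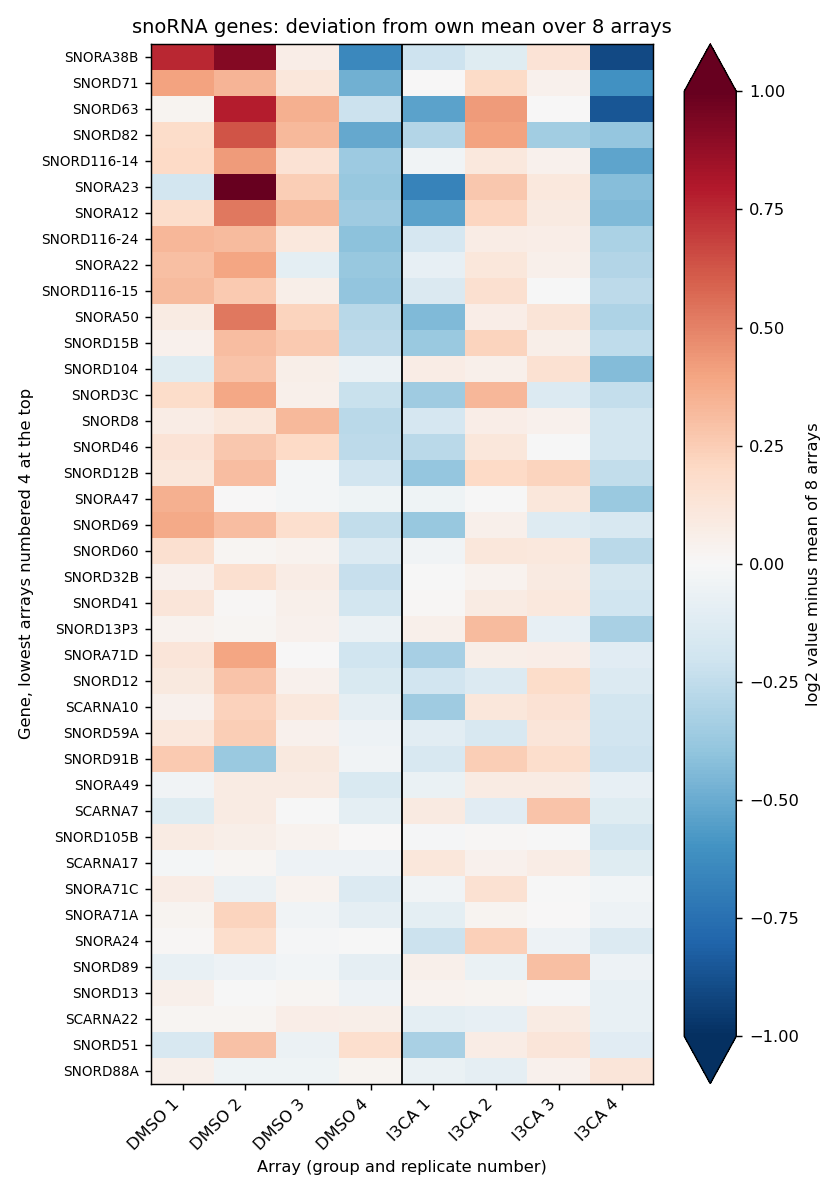
Log2 value of each member minus its mean over 8 arrays, with genes in rows, arrays in columns and a vertical line between DMSO and I3CA. The columns of DMSO replicate 4, I3CA replicate 1 and I3CA replicate 4 are mostly below the mean and that of DMSO replicate 2 mostly above it.

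Set against each other by replicate number, the median member differed by -0.27, -0.12, 0.00 and -0.03 between the I3CA and the DMSO array of numbers 1 to 4. Of the 40 members 35, 32, 20 and 24 were lower in the I3CA array of that number. The medians were furthest below 0 at numbers 1 and 2, and the numbers are not shown to pair the samples. In 8 members (20%, against 6.67% of all genes) all 4 numbers were lower with I3CA. In 0 members were all 4 higher, as they were in 717 of all 11822 genes.

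The arrays numbered 4 were below the other 6 (mean over both groups) in 38 of the 40 members, against 48.6% of all genes, with a median shift of -0.27 for the members and 0.01 for all genes. The shift was -1.03 for SNORA38B, -0.72 for SNORD71, -0.71 for SNORD63, -0.60 for SNORD82 and -0.59 for SNORD116-14. At the other end it was 0.10 for SNORD88A, 0.04 for SNORD51, -0.01 for SCARNA22, -0.08 for SNORD13 and -0.09 for SNORD89. By the length of the RNA in RefSeq, which ran from 68 to 421 bases, the median shift was -0.27 in the 18 members under 100 bases, -0.27 in the 18 members from 100 up to 200 bases and -0.16 in the 4 members of 200 bases or more. These numbered arrays were singled out after their values were seen, so the shifts are a description.

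The spread between arrays of one group was wide in many members. The median standard deviation within groups was 0.20 for the members and 0.15 for all genes, although the members had a higher median level (9.28 against 8.83) and spread on these arrays falls with level. In 27 of the 40 members the spread was above the median of the genes in the same level class, when all genes were ordered by mean signal and cut into 4 classes of equal size. In the third class the medians were 0.28 for 9 members and 0.14 for all genes, and in the highest class 0.17 for 16 members and 0.11. In the lowest class they were 0.20 for 8 members and 0.20 for all genes. SNORA38B (0.59), SNORA23 (0.54), SNORD63 (0.50), SNORD82 (0.43) and SNORA12 (0.38) spread most, and SNORD13 (0.05), SCARNA22 (0.06), SNORD105B (0.07), SNORD88A (0.08) and SCARNA17 (0.08) least. Without both arrays numbered 4 the median spread of the members was 0.15. The 0.15 of all genes above comes from all 8 arrays, so these values are not compared.

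**Figure D3:**
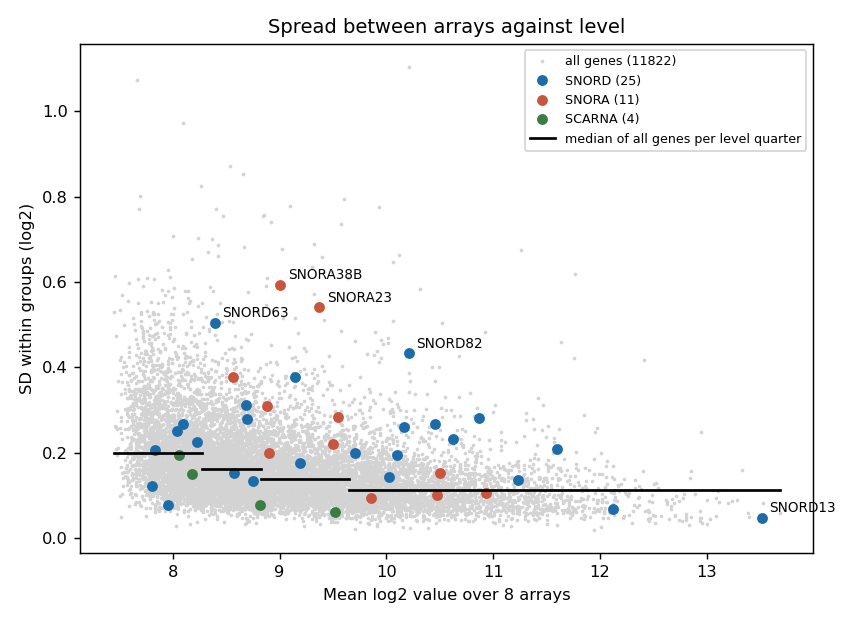
Standard deviation within groups against mean log2 value for the members, coloured by family, and for all 11822 genes in grey, with black lines at the median of all genes in each of 4 level classes. SNORA38B, SNORA23, SNORD63 and SNORD82 lie high above the lines and SNORD13 below them.

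The genes that hold the snoRNAs varied less in most pairs. A host was measured for 24 members, in 22 host genes. Of these hosts 0 passed in limma at an adjusted p under 0.05, and also 0 at an unadjusted p under 0.05, where 3.16% of all genes lay and 1 host did when some single arrays were left out. The I3CA mean was the lower one in 14 of the 22, and the median host difference was -0.02. In 18 of the 24 pairs the snoRNA spread more than its host, with median standard deviations of 0.20 and 0.11. In 23 of the 24 pairs the shift of the arrays numbered 4 was lower for the snoRNA, with medians of -0.26 for the snoRNAs and 0.03 for their hosts. The pairs share hosts in the case of SNHG17, and host and snoRNA are read by different probes. Spread falls with level on these arrays, and the pairs were not matched by level. The median level was 9.77 for the hosts and 9.44 for the 24 members.

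HSPA9, which encodes a mitochondrial chaperone and holds SNORD63, read 12.46, 12.47, 12.54 and 12.42 with DMSO and 12.42, 12.46, 12.48 and 12.40 with I3CA, a range of 0.14 over 8 arrays against 1.64 for SNORD63. Its difference was -0.03 ± 0.07. IPO7 ranged over 0.14 and SNORA23 over 1.70, and AP1G1 over 0.18 and SNORD71 over 1.00. HSPA9, IPO7 and AP1G1 had mean levels of 12.45, 11.30 and 11.15, above the 8.40, 9.37 and 9.14 of their snoRNAs. NCL, the nucleolar protein gene that holds SNORD82, differed by -0.05 ± 0.09, and NOL11, a ribosome biogenesis factor gene that holds SNORA38B, by -0.18 ± 0.10. CWF19L1 differed by 0.05 ± 0.10 beside -0.34 for SNORA12, and RPS3, a ribosomal protein gene, by -0.09 ± 0.07 beside -0.17 for SNORD15B. In 6 of the 24 pairs the host spread more. Of the hosts in these pairs, KIF9, SNHG8 and SNHG17 had lower mean levels than their snoRNAs, and NSD2 had a higher one. KIF9 had a standard deviation of 0.31 beside 0.19 for SNORD13P3, SNHG8 0.19 beside 0.15 for SNORA24, and NSD2 0.07 beside 0.06 for SCARNA22. SNHG17 had a standard deviation of 0.26, above those of SNORA71A (0.10), SNORA71C (0.09) and SNORA71D (0.22), and its shift in the arrays numbered 4 was 0.31, where those of the 3 snoRNAs ran from -0.21 to -0.10.

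**Figure D4:**
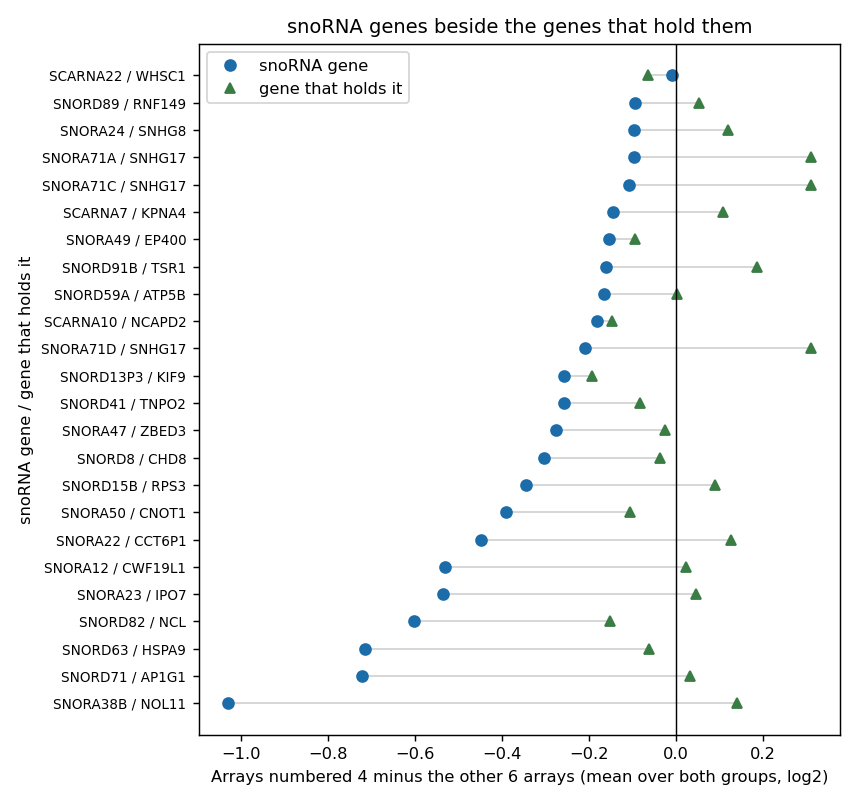
Shift of the arrays numbered 4 against the other 6 arrays on the log2 scale, for 24 snoRNA genes (circles) and the genes that hold them (triangles), joined by a line. The circle lies left of the triangle in 23 of the 24 pairs, and WHSC1 is the older symbol of NSD2.

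The proteins of the snoRNA particles differed little. Of 8 core proteins 6 were measured. FBL, the methyltransferase of the box C/D particle, differed by -0.02 ± 0.09 (10.77 ± 0.06 SD with DMSO and 10.74 ± 0.15 SD with I3CA, n = 4 each), NOP58, its scaffold, by -0.06 ± 0.11 and NHP2L1, now named SNU13, which binds the turn in the RNA where the particle starts, by -0.03 ± 0.08. Of the box H/ACA particle, NHP2 differed by 0.00 ± 0.07, NOP10 by -0.05 ± 0.07 and GAR1 by 0.01 ± 0.10. Of 14 assembly and trafficking proteins 13 were measured, with differences from -0.18 to 0.17. Of the 19 genes 0 passed in limma at an adjusted p under 0.05, and also 0 at an unadjusted p under 0.05, where 3.16% of all genes lay and 1 of the 19 did without I3CA replicate 3 or 4. The median difference was -0.04, and the median shift of the arrays numbered 4 was 0.02.

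As a group, other short noncoding RNAs apart from microRNAs ran with the snoRNA genes. This group holds the 12 other genes under 500 bases that RefSeq lists as noncoding RNA of a short class, without the microRNAs. Its median deviations were 0.06, 0.19, 0.06 and -0.11 in DMSO replicates 1 to 4 and -0.13, 0.08, -0.01 and -0.17 in I3CA replicates 1 to 4. The genes named from it were chosen after their values were seen. In 11 of the 12 the arrays numbered 4 were below the others, and the I3CA mean was the lower one in 11 of the 12, at a median of -0.10. RNU12 was not below in the arrays numbered 4, with a shift of 0.03. The gene with a higher I3CA mean was TERC at 0.07 ± 0.09. SNAR-D, SNAR-E, SNAR-G2 and SNAR-H belong to 1 family, and the 12 genes are not independent observations. RNU4ATAC, the small nuclear RNA of the minor spliceosome, read 10.03, 10.70, 10.33 and 9.93 with DMSO and 9.55, 10.05, 9.99 and 9.70 with I3CA, a difference of -0.42 ± 0.17 (unadjusted p = 0.034 in limma, not passing over all genes). VTRNA1-3, a vault RNA, differed by -0.28 ± 0.16, while RMRP, the RNA of the mitochondrial RNA processing enzyme, differed by -0.02 ± 0.08 and RN7SK, which holds back a transcription elongation factor, by -0.03 ± 0.08.

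The 23 microRNA genes in the table did not show this pattern, with median deviations between -0.06 and 0.10 and 5 of 23 below 0 in the difference. Ribosomal protein genes (45) had median deviations between -0.05 and 0.03 and long noncoding RNA genes (216) between -0.03 and 0.05. The first principal component of the deviations from the group means held 82.0% of the variance in the 12 short RNAs, 40.2% in the microRNA genes, 44.3% in the ribosomal protein genes and 26.0% in the long noncoding RNA genes. These shares too come from unscaled deviations and sets of unlike size. Total RNA had been purified with the RNeasy Mini Kit, a silica column method, and labelled as cDNA. The sources used here give no measure of RNA quality per sample, or of how well RNAs as short as the members were recovered. The part of either in the array pattern was not tested. Mature snoRNAs were not told apart from their precursors.

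**Figure D5:**
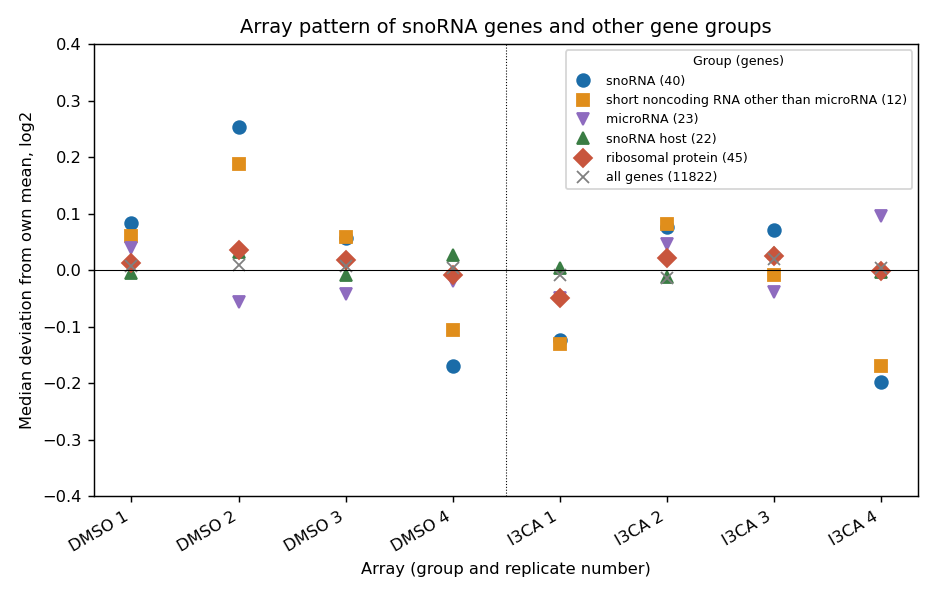
Median deviation from each gene's own mean over 8 arrays, on the log2 scale, by array for 6 groups of genes, whose sizes are given in the legend. The snoRNA genes (circles) and the 12 other short RNAs (squares) are high in DMSO replicate 2 and low in DMSO replicate 4, I3CA replicate 1 and I3CA replicate 4, while the hosts, ribosomal protein genes and all genes stay between -0.05 and 0.03.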

How the data were processed

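Total RNA of 8 U-87MG samples was hybridised to 1-colour Affymetrix arrays, 4 per group. The authors deposited 1 table of log2 expression values for 13486 rows, made with oligo and RMA per the submitters' processing notes, which as used here give no versions. RMA equalises the arrays, so a shift of all RNA cannot be seen. The platform annotation gave 11850 rows 1 gene symbol, 657 several and 979 none, and the brightest row of each gene was kept, leaving 11822 genes. I3CA was compared with DMSO over all genes with limma 3.58.1 (R 4.3.3; lmFit, eBayes, Benjamini-Hochberg adjustment), with no further normalization and no filter. Errors after ± are standard errors of the limma difference unless marked SD. Spread is the pooled standard deviation within groups.

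The members and gene lists were chosen with earlier results of these data known. Named are the members with the 5 largest differences in each direction, the 10 brightest and 5 dimmest, the 5 with the largest and smallest spread, the 5 at either end of the shift of the arrays numbered 4, those sharing a host with them, their hosts and the measured core proteins. Other members are named so that all 40 are accounted for. Of the 40 symbols 39 matched RefSeq (GRCh38.p14) directly and 1 by synonym. A host is a RefSeq gene whose span contains the member. Sequences of the snoRNAs themselves are not used here. In 5 simulated data sets with 200 changed genes among 11822, the I3CA against DMSO fit recovered 59.2% of changes of 0.5 and 93.6% of changes of 1 on the log2 scale, with 4.47% false calls. The changed genes were drawn from the whole table, and the noise of each gene was independent. The members spread more (median 0.20 against 0.15) and varied together, and 1 gene passed in the real data. These shares therefore do not give the recovery for the members. The alternatives left out each array or both numbered 4, blocked on replicate number, renormalized or centred arrays, removed dim genes, changed the variance model, weighted arrays, averaged rows or added rows with several symbols.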

Additional observations from a re-analysis of the deposited data

Results flagged for a closer look

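In 6 of 106 groups of 4 arrays, over 51 named genes and 2 medians of the members, 1 array lay far from the other 3 by Dixon's criterion, where about 5.3 would be flagged by chance. SNORA71C read 10.0155 in I3CA replicate 2, above the other I3CA arrays. SNORD82 read 10.6143 in I3CA replicate 2, above the others. SNORD105B read 11.9375 in I3CA replicate 4, below the others. SNORA24 read 10.672 in DMSO replicate 2, above the others. SCARNA22 read 9.59467 in I3CA replicate 3, above the others. TSR1, the gene that holds SNORD91B, read 9.92869 in I3CA replicate 4, apart from the other 3 I3CA arrays.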

How the results depend on the processing

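Under all 17 alternatives 0 members, 0 snoRNP protein genes and 0 host genes passed at an adjusted p under 0.05 in limma, and 1 gene of the whole table did. Members at an unadjusted p under 0.05 in limma ranged from 0 to 9 when 1 array was left out, beside 328 to 473 of all 11822 genes. The median difference of the members ranged from -0.19 to -0.05. Host genes at an unadjusted p under 0.05 ranged from 0 to 1, and so did snoRNP protein genes. The median difference was -0.05 with rows of several symbols included and -0.15 with array weights. Of 482 single differences of named members under alternatives, 481 moved by less than 1 standard error, and 27 changed sign, in 8 members whose difference was at most 0.07 in size.

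Samples with the same replicate number correlated at 0.04, 0.07, 0.05 and 0.32 in their deviations over all genes for numbers 1 to 4, highest for number 4. No label says that equal numbers share a culture or day, so the main fit does not pair the samples. Over the 40 members alone the correlations were 0.42, 0.54, -0.17 and 0.59, above 0.1 for 3 of the 4 numbers. With the replicate block 6 members had an unadjusted p under 0.05 in limma and 0 passed, the smallest adjusted p being 0.50. The count of all genes at that threshold in this fit is not given here. The median difference stayed at -0.12 by construction.

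With 4 arrays a group, the widest 95% interval of a member ran from -1.27 to 0.17, so sizeable differences in the most variable members were not detectable. The table gives no signal over background.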
